A study of Mus musculus with 9 samples.

Results

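Tekt5, Styk1, Apela, Lrtm2 and Gm10471 are 5 of the 24411 genes in a table of liver RNA counts. They were chosen by symbol because they were near 0 in control livers and high in livers that lacked Atg7 in hepatocytes, or in such livers with a mutant p62, and because Tekt5 fell partway with the mutant. All 5 were among the 11199 genes that passed a filter on low counts. The levels that chose them are described below and nothing is read from whether they passed a test, which covers every comparison with the control livers and the fall of Tekt5. A statement that these genes have no known role in liver cannot be checked from RNA counts.

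Poly(A) RNA was sequenced from whole liver at 3 months of age, from 3 mice in each of 3 groups. Control mice (cont.) were Atg7flox/flox and had no Cre. Mice of the Atg7-KO group were Atg7flox/flox;Alb-Cre, in which Cre is driven by the albumin promoter and removes Atg7 in hepatocytes, while other liver cells keep the gene. The Atg7-KO;p62-S351A mice (S351A below) had the genotype of Atg7-KO and the p62 change S351A, alanine for serine, in each p62 allele by the sample titles. In replicates 2 and 3 of this group the genotype field gives another residue for the second allele, and the titles were followed. All 9 mice thus carried floxed Atg7, and no group analysed here carried the p62 mutation without Cre.

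ATG7 is the enzyme that activates LC3 and ATG12 for their conjugation, a step that autophagosomes need to form. p62, encoded by Sqstm1, is a cargo receptor that autophagy degrades, and when phosphorylated in its KEAP1-binding region it holds KEAP1 and lets the transcription factor NRF2 accumulate. The 5 genes have unlike products. Tekt5 encodes a tektin, a filament protein of the axoneme of sperm tails and cilia. Styk1 encodes a membrane protein with a kinase domain. Apela encodes a secreted peptide (also called Elabela or Toddler) that binds the apelin receptor and acts in the early embryo. Lrtm2 encodes a membrane protein with leucine-rich repeats, and Gm10471 is a predicted gene.

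Tekt5 lies at chr16:10357948-10395490, Styk1 at chr6:131299142-131353597, Apela at chr8:65028417-65037336, Lrtm2 at chr6:119315133-119330766 and Gm10471 at chr5:26082574-26089291 (mm10, GENCODE M21). All 5 are protein-coding genes on the - strand. The RefSeq promoters (GRCm38.p6, 250 bases before to 50 after the start) held 4 of the 5, with 2 starts for Lrtm2. Styk1 had no entry, so its promoter was not searched. The promoters of Tekt5, which was lower in S351A than in Atg7-KO, and of Gm10471, which was higher, are shown. That of Apela is shown too, the single one of the 4 searched members with a motif, in capitals. They span chr16:10395406-10395705 for Tekt5, chr8:65037287-65037586 for Apela and chr5:26089215-26089514 for Gm10471, and are printed 5′ to 3′ on the - strand of each gene.
Tekt5: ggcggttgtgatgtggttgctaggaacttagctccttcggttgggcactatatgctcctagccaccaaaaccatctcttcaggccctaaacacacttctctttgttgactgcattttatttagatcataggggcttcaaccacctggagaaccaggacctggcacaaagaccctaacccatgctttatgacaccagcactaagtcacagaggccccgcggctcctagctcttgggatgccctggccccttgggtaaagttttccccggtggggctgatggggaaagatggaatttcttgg
Apela: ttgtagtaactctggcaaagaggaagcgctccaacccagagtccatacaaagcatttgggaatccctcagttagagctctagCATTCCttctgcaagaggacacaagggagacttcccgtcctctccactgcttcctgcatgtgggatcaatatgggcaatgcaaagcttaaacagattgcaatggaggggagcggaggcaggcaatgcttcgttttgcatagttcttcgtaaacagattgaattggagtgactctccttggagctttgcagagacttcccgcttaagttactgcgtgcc
Gm10471: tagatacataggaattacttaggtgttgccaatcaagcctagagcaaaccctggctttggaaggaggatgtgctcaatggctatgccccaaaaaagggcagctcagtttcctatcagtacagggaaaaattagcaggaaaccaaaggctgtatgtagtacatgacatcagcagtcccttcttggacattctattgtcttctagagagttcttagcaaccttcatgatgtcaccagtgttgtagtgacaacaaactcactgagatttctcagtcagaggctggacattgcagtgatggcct

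On both strands, the motifs searched were TGACNNNGC (the NRF2 core), TGACTCA (AP-1), TGATGNAA (ATF4 and CHOP), CATTCC (TEAD), CAAAGTCCA (HNF4A) and TATAAA (a core promoter element). The CATTCC of Apela was the only match in the 5 windows, and 13.6% of 20788 RefSeq promoters of the same length hold one. The NRF2 core letters, present in 13.2% of all promoters, were in none of the 5 windows. The GC content was 52% for Tekt5, 49% for Apela, 60.3% and 62.3% for Lrtm2 and 44.3% for Gm10471, beside a median of 56.7% over all promoters. The Gm10471 window had 0 CpG, against a median of 13.

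Gm10471 has close copies, which bears on how its reads were counted. Of the 75-base words in its transcript, 31.8% also occur in other genes, 23 in all. The share was 19.7% with Gm1979, 13.2% with Gm21671 and 9.02% with Gm10220. The same 75 coding bases of Gm10471 and of these 3 copies are printed to show how alike they are, with bases that differ from Gm10471 in capitals. The copies differ from it at 2, 4 and 2 of these bases.
Gm10471: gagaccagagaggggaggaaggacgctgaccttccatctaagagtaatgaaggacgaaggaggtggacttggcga
Gm1979: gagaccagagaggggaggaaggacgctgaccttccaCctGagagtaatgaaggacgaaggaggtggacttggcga
Gm21671: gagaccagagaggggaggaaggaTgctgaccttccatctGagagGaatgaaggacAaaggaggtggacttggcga
Gm10220: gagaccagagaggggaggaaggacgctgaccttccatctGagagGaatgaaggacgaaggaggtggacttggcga

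Tekt5, Styk1 and Lrtm2 shared no 75-base word with another gene. Apela shared 24% of its words with Gm45886, an overlapping transcript on the same strand that has no entry in the count table. Lrtm2 lies within Cacna2d4 on the opposite strand, with 0 exon bases in common. The strand setting of the counting was not stated, so reads from unspliced Cacna2d4 RNA and from Lrtm2 exons cannot be told apart.

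Library totals ranged from 713835 to 15426566 counts. The S351A libraries held 713835 to 792366 counts, fewer than any cont. or Atg7-KO library, and an effect of depth and of the p62 mutation therefore cannot be told apart. Levels are given as CPM, counts relative to the total of the tested genes after TMM scaling, and 3 counts, taken as the floor of a library, correspond to 0.269 to 3.73 CPM. Atg7 was at 45.1, 57.7 and 42.4 CPM in the cont. libraries, 30.2, 28.0 and 28.4 in those of Atg7-KO, and 21.8, 24.8 and 22.2 in those of S351A. It was lower than in cont. by a log2 fold change of -0.74 in Atg7-KO (edgeR quasi-likelihood test with Benjamini-Hochberg adjustment, adjusted p 0.00758) and of -1.07 in S351A (adjusted p 0.00319). Replicate 1 of Atg7-KO and of S351A, and replicates 1 and 3 of cont., had 127.7 to 273 CPM of the Y-linked Ddx3y, and the other 5 libraries had at most 0.359 CPM. In whole liver, fewer cells of a type and less RNA per cell cannot be told apart.

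Tekt5 had 0, 0 and 2 counts in replicates 1 to 3 of cont. It had 450, 519 and 335 counts in Atg7-KO, or 104, 186 and 153 CPM, and 33, 20 and 26 counts in S351A, or 37.9, 24.8 and 32.1 CPM. Every S351A library thus lay between the cont. and the Atg7-KO libraries, with no overlap on either side. The Atg7-KO mean was 148 ± 41.2 CPM, and that of S351A was 31.6 ± 6.55 CPM (SD, n = 3 each). Against the highest floor among the cont. libraries, Tekt5 was at least 77.6-fold higher in Atg7-KO and at least 16.6-fold higher in S351A. The S351A level was 21.4% of the Atg7-KO level, a log2 fold change of -2.22 with a 95% interval from -2.82 to -1.62.

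Styk1 had no count in any cont. library. Its counts were 246, 246 and 154 in Atg7-KO, or 57.1, 88.3 and 70.5 CPM, and 16, 5 and 10 in S351A, or 18.4, 6.21 and 12.3 CPM. The 3 groups did not overlap, and S351A was the middle group, as for Tekt5. The means of 72.0 ± 15.7 CPM and 12.3 ± 6.09 CPM (SD, n = 3 each) were at least 37.7-fold and at least 6.46-fold above the highest cont. floor.

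Apela had 0, 1 and 5 counts in cont., and only the 5 counts of replicate 3 exceeded the floor. In the Atg7-KO libraries it had 1493, 864 and 609 counts, or 346, 310.1 and 279 CPM. In S351A it had 308, 155 and 66 counts, or 354, 192.5 and 81.5 CPM. The Atg7-KO libraries lay close together, at 311.7 ± 33.9 CPM, whereas the highest S351A library was 4.34 times the lowest (209 ± 137 CPM, SD, n = 3 each). Replicate 1 of S351A was above every Atg7-KO library and replicates 2 and 3 were below all of them. In both groups replicate 1, the library with Ddx3y reads, was the highest for Apela.

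Lrtm2 had no count in cont. Its counts were 79, 56 and 51 in Atg7-KO, or 18.3, 20.1 and 23.3 CPM, and 13, 15 and 19 in S351A, or 14.9, 18.6 and 23.45 CPM. The Atg7-KO and S351A libraries overlapped, around means of 20.6 ± 2.54 and 19 ± 4.27 CPM (SD, n = 3 each). These were at least 10.8-fold and at least 9.96-fold above the highest cont. floor.

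Gm10471 showed another order of the groups. It had no count in cont., 10, 1 and 2 counts in Atg7-KO and 15, 13 and 4 counts in S351A. On the CPM scale these were 2.32, 0.359 and 0.915 in Atg7-KO and 17.2, 16.1 and 4.94 in S351A, with means of 1.198 ± 1.01 and 12.8 ± 6.81 CPM (SD, n = 3 each). In Atg7-KO, replicate 1 alone exceeded its floor. The Atg7-KO mean was 0.628 times the highest cont. floor, so this bound does not resolve a rise over cont. All 3 S351A libraries were above every library of the other groups, at least 6.70-fold above the highest cont. floor on average, yet they rested on 32 counts in all.

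**Figure D1:**
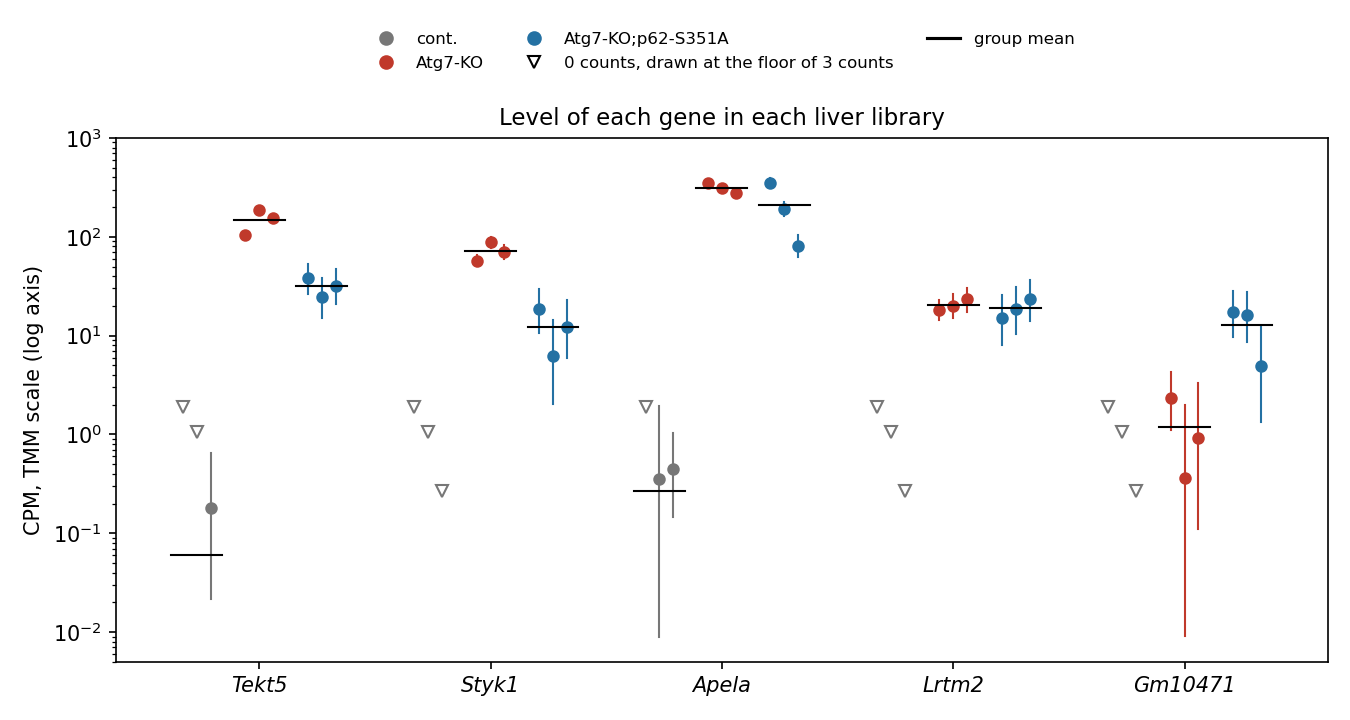
Level of each gene in the 9 liver libraries, in CPM on the TMM scale on a log axis, with grey for cont., red for Atg7-KO and blue for S351A. Points are libraries, vertical lines are exact 95% intervals for counting error, black bars are group means and open triangles are libraries with 0 counts drawn at their floor of 3 counts. S351A points lie between cont. and Atg7-KO for Tekt5 and Styk1, overlap Atg7-KO for Apela and Lrtm2, and lie above Atg7-KO for Gm10471.

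All 5 genes were called higher in Atg7-KO than in cont. and in S351A than in cont., where a call is an adjusted p under 0.05 with a fold change above 1.5. Among all genes tested, 38.0% were called in Atg7-KO against cont. (19.9% higher) and 28.6% in S351A against cont. (15.6% higher). The 5 genes were also above cont. in every library of both groups, as were 26.7% of all genes in Atg7-KO and 19.6% in S351A. Since these comparisons chose the genes, the calls and separations add nothing, and both comparisons share the cont. libraries. The call of Gm10471 in Atg7-KO (log2 fold change 5.06) was lost without cont. replicate 3 (4.5) and without Atg7-KO replicate 1 (3.91). By fitted log2 fold change the ranks in Atg7-KO were 1 for Styk1, 2 for Tekt5, 3 for Apela, 6 for Lrtm2 and 89 for Gm10471. In S351A they were 2 for Apela, 3 for Lrtm2, 4 for Gm10471, 5 for Styk1 and 10 for Tekt5. These ranks rest on cont. counts at or near 0, and the order of the members changed with the analysis. After thinning to the smallest library, the fitted change in Atg7-KO was 10.9 for Apela, 8.67 for Styk1 and 7.60 for Tekt5.

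Per kilobase of exon, the level in Atg7-KO was 310.5 CPM for Apela, 81.9 for Tekt5, 12.3 for Styk1, 5.02 for Lrtm2 and 0.404 for Gm10471, and no neighbours in this order overlapped. In S351A the per-kilobase order was Apela (208 CPM), Tekt5 (17.5), Lrtm2 (4.63), Gm10471 (4.30) and Styk1 (2.10). There the libraries of Lrtm2 and Gm10471 overlapped, as did those of Gm10471 and Styk1. Styk1 thus stood above Lrtm2 and Gm10471 in Atg7-KO and below both in S351A.

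What changes when p62 loses this phosphorylation site was asked by setting S351A beside Atg7-KO. Of the 11199 genes, 0.00893% were called, which is 1 gene, Tekt5, and 739 had an unadjusted p under 0.05 in the edgeR test. Since its fall chose Tekt5, nothing is read from this call. It held in 12 of 19 alternative analyses and was lost with limma-voom (log2 fold change -2.18), without cont. replicate 1 (-2.22), without Atg7-KO replicate 2 (-2.03) or 3 (-2.20), and without S351A replicate 1 (-2.38), 2 (-2.07) or 3 (-2.24). The other 4 members were chosen on their levels in these libraries, which favours a lower value in S351A for Styk1, Apela and Lrtm2, and a higher one for Gm10471. Their differences are therefore given as a description with no test, and their intervals show the spread between libraries only.

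The S351A level of Styk1 was 17.1% of its Atg7-KO level. Its log2 fold change was -2.53 (SE 0.34, 95% interval -3.29 to -1.77 from the edgeR fit). Every S351A library was below every Atg7-KO library, as for 9.23% of all tested genes. Over 19 alternative analyses the change of Styk1 kept its sign, which is a description only, since levels in these libraries chose the gene.

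Gm10471 was higher in S351A by a log2 fold change of 3.22, and it passed the filter only through S351A. The pooled counts gave a ratio of 9.19 with a 95% interval from 4.69 to 19.1, for counting error only. Libraries that do not overlap and are higher in S351A were seen for 7.67% of all genes, and lower ones for 9.23%.

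For Apela and Lrtm2 the interval of the difference included 0. The log2 fold change of Apela was -0.57 (95% interval -1.43 to 0.28), so that no change and a fall are both within the interval. It was -1.19 without replicate 1 of S351A, -0.20 without replicate 3, and -0.71 with the sex of the library, read from Ddx3y, in the model. For Lrtm2 the log2 fold change was -0.11 (95% interval -0.76 to 0.53).

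**Figure D2:**
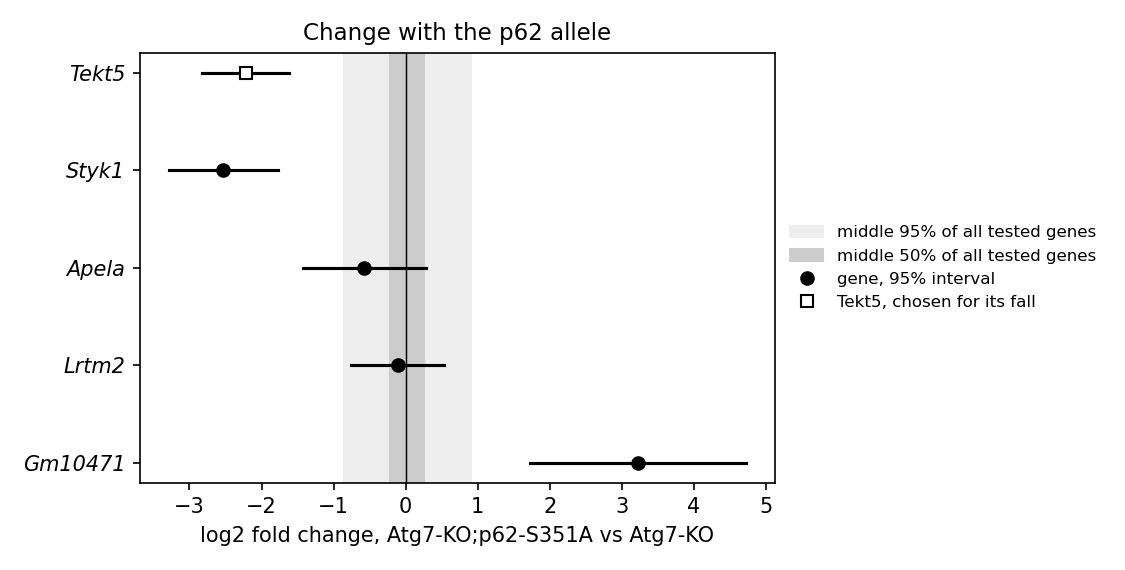
Log2 fold change of each gene in S351A against Atg7-KO, with 95% intervals from the edgeR fit. The grey bands hold the middle 50% (-0.22 to 0.26) and 95% (-0.85 to 0.91) of all 11199 tested genes. Tekt5 (open square, chosen for its fall) and Styk1 lie below the bands, Apela and Lrtm2 within them and Gm10471 above.

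The on-off pattern was not limited to the 5 genes. In the table, 10627 genes had at most 3 counts in every cont. library, and 52 of these reached a mean of at least 10 CPM in Atg7-KO or in S351A. Tekt5 ranked 3, Styk1 5, Lrtm2 17 and Gm10471 51 of the 52 by Atg7-KO mean. Apela was outside because of its 5 counts in cont. replicate 3. The S351A mean of the 52 genes was a median of 78.5% of the Atg7-KO mean (quartiles 45.8% and 109%), so that Styk1 (17.1%) and Tekt5 (21.4%) were below the first quartile and Lrtm2 (92.3%) above the median. In 15 of the 52 genes every S351A library was below every Atg7-KO library, and in 3 every one was above, beside 9.23% and 7.67% of all tested genes. The 52 genes were chosen on their levels in these groups, so the counts are a description. The 3 were Gldn, Gm10471 and Cdh16, named after their values were seen.

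**Figure D3:**
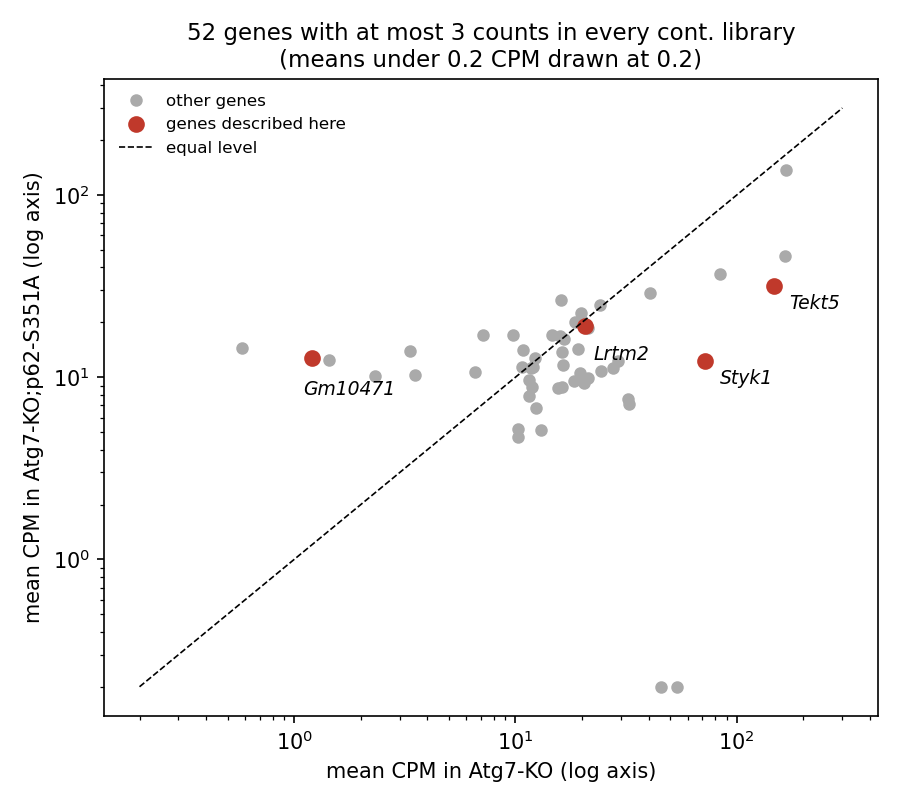
Mean level in S351A against mean level in Atg7-KO, both in CPM on log axes, for the 52 genes with at most 3 counts in every cont. library and a mean of at least 10 CPM in either other group. The dashed line marks equal levels, and 2 genes with no count in S351A are drawn at the lower edge. Tekt5 and Styk1 lie well below the line, Lrtm2 near it and Gm10471 above it.

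Across the 9 libraries the pattern most like that of Tekt5 was that of Elovl7, a fatty acid elongase, with a root mean square difference of 0.465 on the log2 CPM scale after centring each gene. Cbr3, a carbonyl reductase, followed at 0.537 and Styk1 at 0.593. Elovl7 was at 0.661, 178.7 and 53.9 CPM and Cbr3 at 0.891, 182.7 and 85.2 CPM on average in cont., Atg7-KO and S351A. The nearest to Styk1 were Tekt5, Elovl7 (0.676) and Gpx2, a glutathione peroxidase (0.798). Since levels that chose the 2 genes set this likeness in part, it is a description.

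The nearest to Apela were Slc1a1, a glutamate transporter, at 0.879, Cbr3 at 0.921 and Ubd, a ubiquitin-like modifier, at 0.995. The patterns nearest to Lrtm2 were those of Ccdc120 (0.267), of the chemokine gene Cxcl10 (0.292) and of the matrix metalloproteinase gene Mmp7 (0.32). For Gm10471 the nearest were Foxc1 (0.702), a forkhead transcription factor gene, Gldn (0.743) and Celsr2 (0.76). Between members the difference was smallest for Tekt5 and Styk1, and Gm10471 differed from the others by 1.73 to 2.92.

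Most genes with functions related to Tekt5 did not pass the filter. Of the other tektins, Tekt1, Tekt3 and Tekt4 had 3, 0 and 1 counts over all 9 libraries. Tekt2 had 21, 33 and 7 counts in cont., Atg7-KO and S351A, or 1.17, 3.63 and 2.86 CPM on average, and its cont. libraries (0.704 to 1.52 CPM) did not overlap those of Atg7-KO (3.02 to 4.67 CPM). None of the 4 passed the filter. Of 37 genes of motile cilia and the axoneme in the table, 5 were tested, and the 37 summed to 30.5 to 43.7 CPM in cont., 53.5 to 78.4 in Atg7-KO and 49.4 to 80.4 in S351A. In Atg7-KO against cont., Cfap44 (6.74), Rsph9 (2.35) and Gas8 (1.16) were called higher, with Atg7-KO means of 4.30 to 11.8 CPM. These 3 genes, and Mns1 (2.78 higher in S351A than in cont.), passed the filter only through groups where they were high, so no count over the 5 tested genes is given as a result on the list. In S351A against cont., Cfap20 was lower (-1.40, not called when libraries were scaled by their totals).

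Markers of testis germ cells, which use Tekt5, were mostly near the floor. The protamine gene Prm2 had no count in any library, 8 of the 24 markers were at 0 throughout, and the summed level was 29.3 to 49.6 CPM in cont., 28.1 to 29.8 in Atg7-KO and 25.3 to 30.9 in S351A. Of the 2 markers tested, Odf2 and Sycp3, 0 were called in Atg7-KO against cont., and Sycp3 was lower in S351A than in cont. (-2.25, not called with library totals as the scaling).

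The receptor of Apela and its other ligand were near the floor. Apln, which encodes the other ligand of the apelin receptor, had 1 count over the 9 libraries. Aplnr, the receptor itself, had 1, 3 and 2 counts in cont., Atg7-KO and S351A, so that neither was measurable at this depth. Of 10 genes of the system 6 were tested, and in Atg7-KO against cont. 3 were called higher and 2 lower, beside 38.0% of all genes called, the median log2 fold change being 0.73. Gnai2, a G protein subunit (1.55), and the arrestins Arrb2 (1.32) and Arrb1 (1.07) were higher. Gnai3 (-0.93) and the protease gene Furin (-0.63) were lower, and neither was called with library totals as the scaling.

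Genes of pluripotent and early endoderm cells, where Apela is known to be used, were few among the tested genes. Their 20 markers summed to 11.4 to 15.3 CPM in cont., 15.6 to 26.2 in Atg7-KO and 13.6 to 16.1 in S351A. The single marker tested, Sox17, was at 10.4, 9.16 and 6.87 CPM on average and was not called in any comparison, and T, Mixl1 and Cer1 had no count in any library.

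For Styk1, ErbB receptors, AKT and the class III PI3-kinase complex were examined as kinase pathways to which it has been linked. Of 11 tested genes of the first list, Erbb2 (1.89) and Akt1 (0.93) were called higher in Atg7-KO than in cont., and Egfr (-1.94) and Erbb3 (-1.24) lower, the median of the list being -0.04. These 4 of 11 are near the 38.0% called among all genes, and Erbb2 passed the filter only through groups where it was high. Of 8 tested genes of the second list, Bcl2 alone was called in Atg7-KO (2.74 higher), with a median of -0.21, beside 38.0% of all genes called. The other 7, among them Becn1 (-0.17) and Pik3c3 (-0.98), were not called. In S351A against cont., where 28.6% of all genes were called, Bcl2 was again higher (2.77). Pik3c3 (-1.30) and Ambra1 (-0.81) were lower there, but not with library totals as the scaling.

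Lrtm1, which bears the same family name as Lrtm2, fell in Atg7-KO. It had 210, 497 and 245 counts in cont., or 133, 175 and 21.9 CPM, and 3.23 to 5.95 CPM in Atg7-KO. In S351A it was at 14.9, 49.7 and 42.0 CPM, above every Atg7-KO library and partly overlapping cont. It was called lower in Atg7-KO than in cont. (log2 fold change -4.72, edgeR with Benjamini-Hochberg adjustment, adjusted p 0.000347), and its S351A libraries differed from Atg7-KO by 3.10 (adjusted p 0.364). Of 21 leucine-rich repeat membrane protein genes only Lrtm1 and Flrt1 were tested. Flrt1 went the other way against cont., at 1.22 in Atg7-KO (not called) and 2.09 in S351A (called). The median of -1.75 in Atg7-KO against cont. thus lies between a fall and a rise.

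To see whether the changes extended along the chromosome, the 3 nearest genes of the table on each side of each member were read. Of these 30 genes 12 were tested, and Cacna2d4, Ciita, Klra2 and Dcp1b passed the filter only through groups where they were high, so the counts are a description. In Atg7-KO against cont. 7 of the 12 were called higher and 1 lower, beside 19.9% and 18.1% of all genes, and their median log2 fold change was 1.02. The 8 calls became 2 when libraries were thinned to the smallest, and 4 when only genes with at least 10 counts in every library were tested. In S351A against cont. 4 were higher and 1 lower (median 0.36), beside 15.6% and 13.0% of all genes, and in S351A against Atg7-KO 0 were called, with a median of -0.21.

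Beside Tekt5, Emp2, a tetraspan membrane protein gene 44 kb away, was called higher in Atg7-KO and in S351A, at 18.3, 243.8 and 232.7 CPM on average in the 3 groups. Between S351A and Atg7-KO its log2 fold change was -0.07. Ciita, the regulator of MHC class II genes, was also higher in Atg7-KO (2.18) and in S351A (2.58), and Nubp1, at 16.5 kb, was not called (0.24).

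Beside Styk1, the 3 tested neighbours were all called higher in Atg7-KO and 0 of 3 in S351A against cont. Magohb, a component of the exon junction complex 5.9 kb away, was at 6.05 ± 1.23, 17.1 ± 3.95 and 6.45 ± 3.13 CPM (SD, n = 3 each) in cont., Atg7-KO and S351A. Ybx3, a nucleic acid binding protein gene 11.3 kb away, was at 43.4, 98.7 and 55.5 CPM. Klra2, a lectin-like receptor gene, was at 2.18, 8.45 and 3.15 CPM. Between S351A and Atg7-KO none of the 3 was called, with log2 fold changes of -1.39, -0.83 and -1.38 (adjusted p 0.473, 0.535 and 0.736, edgeR with Benjamini-Hochberg adjustment).

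Beside Lrtm2, its host Cacna2d4, an auxiliary calcium channel subunit, had 0, 0 and 1 counts in cont., 27, 43 and 20 in Atg7-KO and 5, 4 and 4 in S351A. It was called higher in Atg7-KO (6.62) and in S351A (5.66). Another gene of its family, Cacna2d1, was also higher in Atg7-KO (2.52), and it too passed the filter only through groups where it was high. Further out, Fbxl14 was higher in Atg7-KO (0.88), Adipor2 was lower (-0.81, not called with library totals as the scaling), Wnt5b was not called (-1.07), and Dcp1b was called higher in S351A alone (1.30). Set against Atg7-KO, Dcp1b in S351A differed by 0.83 (edgeR, adjusted p 0.742).

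Of the neighbours of Apela only Tma16 was tested, which lies 1435.8 kb away, and it was not called (0.60). None of the closer neighbours of Apela passed the filter, and BC030870, at 48.3 kb, had 0, 13 and 1 counts in the 3 groups. Near Gm10471 no gene passed the filter. Its neighbours Speer4a, 5031410I06Rik and Gm10220 are among the genes that share 75-base words with it. The 14 such genes in the table had 1, 15 and 20 counts in cont., Atg7-KO and S351A, or 0 to 0.636, 1.08 to 2.09 and 3.70 to 16.1 CPM by library. The 14 Speer genes had none in cont., 0.232 to 3.20 CPM in Atg7-KO and 2.47 to 16.1 CPM in S351A. RSEM divides reads that fit several copies by estimate, so the counts of Gm10471 are uncertain as to gene.

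**Figure D4:**
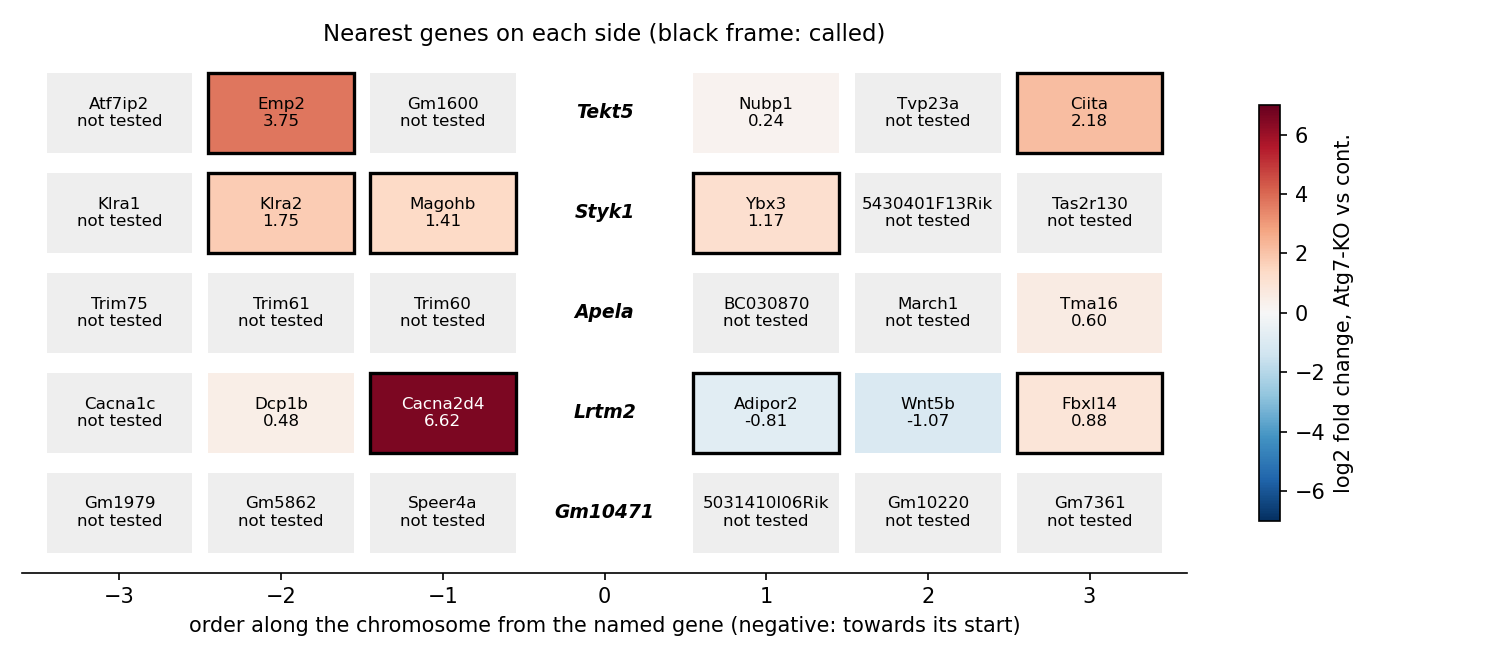
Log2 fold change in Atg7-KO against cont. of the 3 nearest genes of the table on each side of each member, in their order along the chromosome. Colour and printed value give the log2 fold change, grey boxes were not tested and black frames mark called genes. The 3 tested neighbours of Styk1 are all framed, and Cacna2d4 beside Lrtm2 has the highest value, 6.62.

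Cell type markers moved in the same comparisons as the 5 genes. Their counts are a description, given beside 19.9% higher among all genes, since some markers, such as the ductular Cftr, Epcam, Krt7 and Krt19, passed the filter only through groups where they were high. Of 9 tested ductular cell markers, 8 were called higher in Atg7-KO than in cont., and the 12 listed genes summed to 82.4 to 131 CPM in cont., 916 to 1310 in Atg7-KO and 834 to 1310 in S351A. Of 13 macrophage markers 9 were higher (summed level 221 to 338, 372 to 473 and 335 to 359 CPM in the 3 groups). Of 10 tested stellate cell and matrix markers 7 were higher (297 to 598, 1340 to 1810 and 1220 to 1750 CPM). Of 13 hepatocyte markers 10 were lower, beside 18.1% of all genes, and the summed level was 59400 to 126000 CPM in cont., 42700 to 49700 in Atg7-KO and 40600 to 54600 in S351A. The lower calls of Alb and Fgb were among those that did not hold under every scaling. Endothelial markers had 1 higher and 2 lower of 9, the lower ones being Stab2 (-1.03) and Clec4g (-1.11), which also did not hold under every scaling (-0.47 and -0.56 with library totals), and of 9 lymphocyte markers 1 of the 2 tested was higher. Their part in the levels of the 5 genes was not tested.

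In S351A against Atg7-KO no gene of any of these marker lists was called, and the ductular markers had a median log2 fold change of 0.18. Of 12 tested proliferation genes 11 were higher in Atg7-KO than in cont., beside 19.9% of all genes. Of 7 tested genes of fetal liver and tumours all 7 were higher. Among these, Ly6d (7.71) and Gpc3 (7.00) likewise passed the filter only through groups where they were high, so the counts are a description. The proliferation genes summed to 41.2 to 45.8, 168 to 223 and 158 to 163 CPM in cont., Atg7-KO and S351A, and the fetal liver and tumour genes to 7.62 to 13.3, 318 to 393 and 179 to 306 CPM. Of 40 NRF2 targets 23 rose and 4 fell in Atg7-KO against cont. (median 1.04), where 19.9% of all genes were higher and 18.1% lower. In S351A against cont. 18 rose and 3 fell (median 0.57), where 15.6% of all genes were higher and 13.0% lower. Slc7a11 and Cbr3 passed the filter only through groups where they were high, so these counts too are a description. Of the falls, that of Gstm6 held under every scaling in both comparisons (-1.37 and -1.28), whereas those of Gsta3 and Cat in both and of Gstp1 in Atg7-KO did not. Their summed level was 17000 to 23600 CPM in cont., 38200 to 47800 in Atg7-KO and 29500 to 30700 in S351A, so that S351A was the middle group without overlap for these 3 lists. Between S351A and Atg7-KO 0 of the 40 were called by edgeR, the median log2 fold change being -0.61, beside 0.01 over all genes.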

How the data were processed

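Per the labels, reads were trimmed with Trim Galore, mapped to mm10 with STAR and counted with RSEM; versions, annotation and strand setting are not given in the sources used here. The deposited values are expected counts per gene (RSEM estimates), of which 4.40% to 7.75% per library were not whole; all were rounded. Columns named WT, LKO and LKOSA were read as cont., Atg7-KO and S351A. Of 24411 symbols, 23376 matched GENCODE M21. Counts were fitted with edgeR 4.0.16 (R 4.3.3): filterByExpr (minimum count 10, minimum total 15), TMM scaling, 1 term per group and quasi-likelihood tests over all 9 libraries, with Benjamini-Hochberg adjustment over 11199 genes. Calls needed an adjusted p under 0.05 and a fold change above 1.5. The fit was tested on simulated data. CPM are counts relative to the tested-gene total on the TMM scale. Intervals per library are exact (Clopper-Pearson, 95%) and, like the floor of 3 counts, cover counting error only. Fold bounds divide a group mean by the highest cont. floor. Genes were named by rule: the members, Atg7, for each member the 3 genes with the smallest root mean square difference of centred log2 CPM (prior count 2), the 3 called genes with the largest change per list, comparison and direction, and the neighbours. The members and lists were chosen with earlier results of these data known. The study describes 3 biological replicates per group. Replicates of a group differed by 2.33 to 112 times counting error. DESeq2 1.42.0 and limma 3.58.1 (voom) were among the alternatives.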

Additional observations from a re-analysis of the deposited data

How the results depend on the processing

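Alternatives changed the scaling (RLE, library totals, or totals less the 20 most abundant genes), the filter (none, or 10 counts or more in all libraries), the tool (DESeq2, limma-voom), the depth (thinning to the smallest library) and the libraries (the 6 compared, or each left out), or added the replicate block. Sex of the library as a covariate was added after seeing the data. For S351A against Atg7-KO, Styk1, given without a test, was at -2.59 without the filter, -2.53 with DESeq2, -2.53 after thinning and -2.51 with 6 libraries, and lay between -2.95 and -2.22 with a library left out. Gm10471, likewise, was at 3.19 without the filter, 3.31 with DESeq2 and 2.83 to 4.29 when a library was left out. Lrtm2 turned to 0.145 after thinning and to 0.0367 without S351A replicate 1 (range -0.295 to 0.0367 on leaving out a library). Apela ranged from -1.19 to -0.196 and Tekt5 from -2.43 to -2.03 on leaving out a library. The cause was not tested. Genes called in S351A against Atg7-KO were 1, but 98 without the filter, 40 with DESeq2, 10 with 6 libraries, 2 after thinning, 0 with limma-voom or at least 10 counts in every library, and 0 to 3 on leaving out a library. In Atg7-KO against cont. they were 4253, 2504 with at least 10 counts in every library, 2614 after thinning and 3238 to 4530 on leaving out a library. In S351A against cont. they were 3208, 1941, 2086 and 2098 to 3572 likewise, lowest without S351A replicate 1, and 1849 with 6 libraries. Called neighbours were 8, with 4 at 10 counts in every library, 2 after thinning and 7 to 8 on leaving out a library. At a mean of 5 CPM, 126 genes shared the on-off pattern, in place of 52. With a prior count of 0.5, 9 of the 15 most like genes were the same.

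The members' rise over cont. kept its sign in every alternative that gave a value, and thinning to the smallest library moved the fitted change in Atg7-KO from 9.79 to 7.60 for Tekt5 and from 9.55 to 10.9 for Apela. Requiring 10 counts in every library removed all 5 genes, so it gave no value for them. Scaling by library totals shifted the median of all genes, on the log2 scale, to 0.52 in Atg7-KO and 0.47 in S351A against cont., and scaling without the 20 top genes to 0.41 and 0.37. No called list or neighbour gene turned sign by scaling, but 105 of 116 calls held in every scaling in Atg7-KO against cont. and 89 of 102 in S351A against cont. Replicate numbers were not taken to pair the samples, since same-numbered libraries correlated with r from -0.0415 to 0.306 and not every pair exceeded 0.1. All 3 pairs of cont. and S351A did (0.16 to 0.235), and 6 of 9 libraries correlated best with their own number, a hint from the data and not the design. With the replicate block, Tekt5 was at -2.18, Styk1 at -2.51, Gm10471 at 3.36, and 1 gene was called in S351A against Atg7-KO, 3406 in S351A against cont. and 4313 in Atg7-KO against cont. The S351A counts of Styk1 and Gm10471 sum to 31 and 32. In the S351A libraries, of 713835 to 792366 counts, 3 counts correspond to up to 3.73 CPM, and values below this there, such as those of Klra2, Sycp3 and Cfap44, rest on few counts.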
